A study of Mus musculus with 16 samples.

Results

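The genes described here are 6 genes of antigen presentation by MHC class II, measured in whole embryonic adrenal glands: H2-Aa, H2-Ab1, H2-Eb1, H2-DMa, Cd74 and Ciita. They were taken by symbol from the annotation of the Affymetrix Mouse430_2 array, on which each transcript is read by a probe set of short oligonucleotides. All 6 had at least 1 probe set, 14 probe sets in all of 45101 on the array, and they stand among 18193 genes that had a probe set with a single symbol. The KO glands had the genotype Sf1-Cre/Dicer lox/lox, so that Dicer, which cuts microRNA precursors, was removed where the Sf1 regulatory region drives Cre, a region active in the adrenal cortex. Controls were littermates without Cre, labelled WT, and which Dicer lox alleles they carried is not stated. All mice were on a C57BL/6 background. Glands of 1 genotype were pooled within a litter, and 4 pools from separate litters were profiled in each of the 4 groups: KO E15.5, control E15.5, KO E16.5 and control E16.5. How many glands made up a pool is not given in the labels, and each pool was read on 1 array. Nothing says that same-numbered KO and control pools share a litter.

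MHC class II molecules are pairs of an alpha and a beta chain that display peptides from endocytosed proteins to CD4 T cells. The invariant chain, encoded by Cd74, occupies the peptide groove during assembly and is cleaved in endosomes, after which H2-DM helps to exchange its last fragment for a peptide. Transcription of these genes depends on the co-activator Ciita, which binds to factors assembled on short promoter elements known as the X and Y boxes. Macrophages, dendritic cells and B cells are the classical class II cells, and each can occur in a whole gland. C57BL/6 mice carry the H-2b haplotype, in which H2-Ab1 and H2-Aa encode the A molecule, while a deletion in the gene of the E alpha chain leaves the product of H2-Eb1 without its usual partner.

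The promoter elements are shown for the 2 chain genes whose sequence was at hand, because these members share them. The windows run from 250 bases before to 50 bases after the RefSeq start of the gene, in build GRCm38.p6. H2-Aa lies at chr17:34287774-34288073 on the minus strand and H2-Eb1 at chr17:34305617-34305916 on the plus strand. Capitals mark the core of the X box (GCAAC), the Y box (CTGATTGG) and, in H2-Aa, the palindrome TGACGTCA, a binding sequence of CREB proteins.
H2-Aa: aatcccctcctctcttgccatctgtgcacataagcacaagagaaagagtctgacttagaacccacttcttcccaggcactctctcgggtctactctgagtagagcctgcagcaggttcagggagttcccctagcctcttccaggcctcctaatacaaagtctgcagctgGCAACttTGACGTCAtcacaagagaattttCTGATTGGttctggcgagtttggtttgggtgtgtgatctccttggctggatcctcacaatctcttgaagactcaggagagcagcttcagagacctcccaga
H2-Eb1: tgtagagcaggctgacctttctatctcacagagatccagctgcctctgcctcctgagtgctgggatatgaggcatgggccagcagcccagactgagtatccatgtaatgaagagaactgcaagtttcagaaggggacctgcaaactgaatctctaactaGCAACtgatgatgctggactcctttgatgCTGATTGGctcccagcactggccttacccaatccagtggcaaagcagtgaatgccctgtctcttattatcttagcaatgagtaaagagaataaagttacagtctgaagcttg
The X core preceded the Y box by 25 bases in H2-Aa and by 24 bases in H2-Eb1. Both strands of 32851 promoter windows were searched: GCAAC was found in 35.2% of them, CTGATTGG in 4.10% and TGACGTCA in 1.79%. GCAAC followed by CTGATTGG within 40 bases on the same strand was found in 54 windows, 0.164%, which include those of the related chain genes H2-Oa and H2-Eb2. GCAAC and CTGATTGG share no base in these windows. The pair was not found in either of the 2 windows of H2-DMa. The letters searched were chosen after the sequences were seen, and a match describes the letters in the window only. No window was listed for H2-Ab1, Cd74 or Ciita.

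Signals are given on a log2 scale, where 1 unit is a factor of 2. The mean over all probe sets was 6.35 to 6.37 on the KO arrays and 6.31 to 6.32 on the control arrays, and arrays of the same group correlated at 0.975 to 0.996. Control E16.5 replicate 2 stood apart in RNA quality, with a 3′ minus 5′ signal of Gapdh of 3.25, against -0.05 to 1.50 on the other arrays. The log2 fold change of Dicer1 itself, KO over control, was -0.35 at E15.5 (limma adjusted p = 0.0638) and -0.36 at E16.5 (adjusted p = 0.0414). Whether its probe set lies within the deleted exons is not known from the labels. Of all 13644 genes tested, 800 passed an adjusted p under 0.05 in limma at E15.5 (5.86%, with 3.69% higher and 2.18% lower in KO) and 1439 at E16.5 (10.5%, with 6.99% higher and 3.55% lower). Higher calls made up 62.9% and 66.3% of these. Quantile normalization changed that split to 51.6% and 51.5%, and centring each array at its 75th percentile to 42.6% and 42.3%.

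The class II transcripts were dim to moderate. The 40th percentile of an array, used as the floor for a testable signal, lay between 5.11 and 5.21. A gene was tested when its brightest probe set exceeded that percentile on at least 4 of the 16 arrays, which 5 of the 6 members did. H2-Eb1 and Cd74 exceeded it on all 16 arrays and H2-Aa on 12. H2-Ab1 exceeded it on 10 arrays, of which 8 were KO, and H2-DMa on 10, of which 7 were KO. No control array at E15.5 carried H2-Ab1 or H2-DMa above the floor, and both genes entered the test through the KO arrays. Ciita exceeded the floor on 1 array and was not part of the fit. The summary of dim probe sets by RMA compresses changes near the floor.

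**Figure D1:**
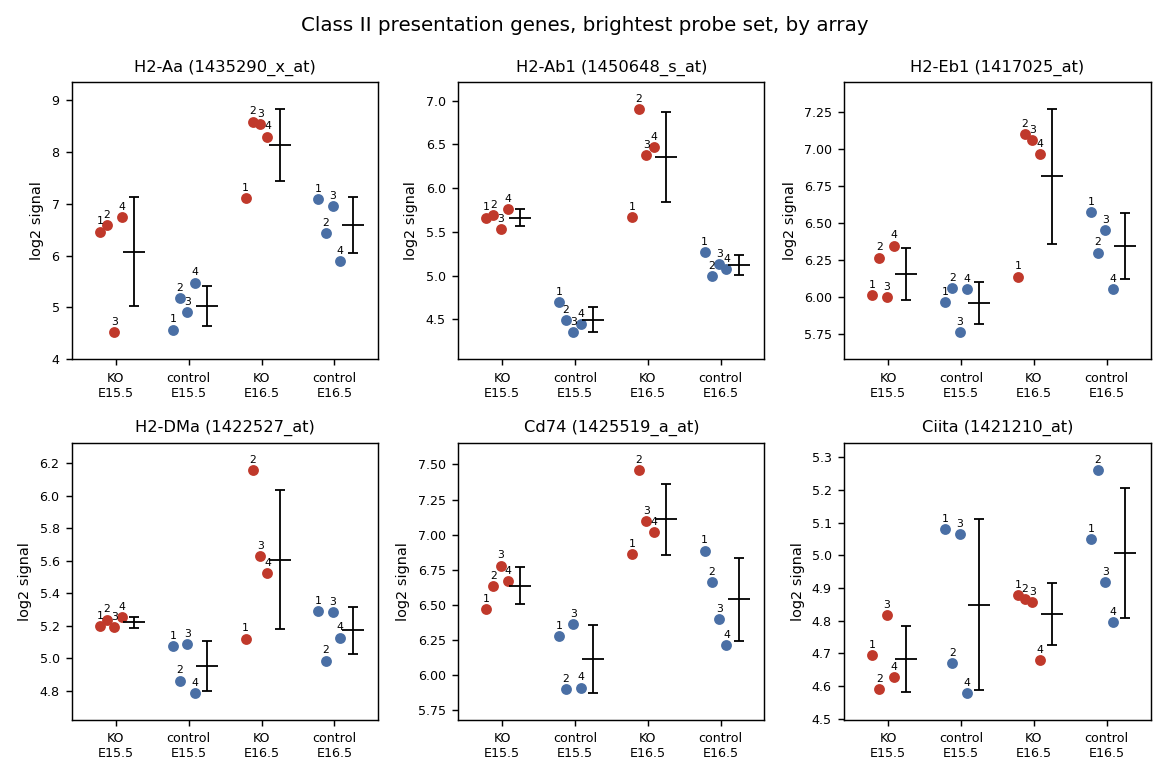
Log2 signal of the brightest probe set of each of the 6 members (vertical axes, each panel with its own range) on the 16 arrays, grouped by genotype and embryonic day. Points are arrays with their replicate numbers, bars are the mean ± SD of 4 arrays. H2-Ab1 is separated between genotypes at each stage, and KO E15.5 replicate 3 lies at the control level of H2-Aa with 4.52.

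H2-Aa encodes the alpha chain of the A molecule. At E15.5 its signal was 6.47, 6.59, 4.52 and 6.74 in the KO pools (replicates 1 to 4), against 4.57, 5.17, 4.91 and 5.48 in the control pools. KO replicate 3 was the lowest of all 8 arrays, and the other 3 KO pools lay above every control. The means were 6.08 ± 1.05 in KO and 5.03 ± 0.39 in control (SD, n = 4 each), and the log2 fold change of 1.05 (SE 0.44) did not pass (limma adjusted p = 0.201). Without KO replicate 3 the fold change was 1.57 (adjusted p = 0.0137). At E16.5 the KO pools had 7.11, 8.59, 8.54 and 8.30, against 7.09, 6.43, 6.96 and 5.89 in the controls. The groups did not overlap, although KO replicate 1 exceeded the highest control by very little. H2-Aa rose in KO glands at this stage by 1.54 (SE 0.44, adjusted p = 0.0346), a factor of 2.92. That call rests on small margins: it held in 11 of the 16 fits with an array left out, with adjusted p up to 0.101. It was lost without KO E16.5 replicate 2, 3 or 4 (adjusted p = 0.0910, 0.101 and 0.0829), and without control E16.5 replicate 2 or 4 (0.0573 and 0.0946). It was also lost under 75th percentile centring (0.0513) and when the change had to exceed 0.358, an allowance for the offset between genotypes seen in dim probe sets (0.300).

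H2-Ab1, the beta chain that pairs with H2-Aa, separated the genotypes most evenly. At E15.5 the KO pools had 5.66, 5.69, 5.54 and 5.76, against 4.70, 4.49, 4.36 and 4.44 in the controls. At E16.5 the KO pools had 5.67, 6.90, 6.38 and 6.47, against 5.27, 5.0, 5.13 and 5.08 in the controls. Every KO value exceeded every control value of its stage. H2-Ab1 rose in KO glands by 1.17 at E15.5 (SE 0.18, limma adjusted p = 0.000800) and by 1.24 at E16.5 (SE 0.18, adjusted p = 0.000282). These are factors of 2.25 and 2.36. Both calls held in all 16 fits with an array left out and in the fit without a floor (adjusted p = 0.000704 and 0.000274). The E15.5 call was lost with the mean of all its probe sets (0.47, adjusted p = 0.0653). It was also lost on its second brightest probe set (0.64, adjusted p = 0.0682).

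H2-Eb1, the beta chain of the E molecule, lay above the floor in every pool but differed less between genotypes. At E15.5 it had 6.01, 6.27, 6.00 and 6.35 in KO, against 5.96, 6.06, 5.76 and 6.05 in control, and the groups overlapped (log2 fold change 0.20, SE 0.18, adjusted p = 0.643). At E16.5 it had 6.14, 7.10, 7.06 and 6.97 in KO, against 6.57, 6.30, 6.45 and 6.05 in control. All KO pools but replicate 1 exceeded every control, and KO replicate 1 fell among the controls. The difference of 0.47 (SE 0.18) did not pass (adjusted p = 0.119), and without KO replicate 1 it was 0.70 (adjusted p = 0.00396). That was the only 1 of 16 fits with an array left out that passed. Over the 16 the difference was 0.37 to 0.70, with adjusted p up to 0.288.

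H2-DMa encodes the alpha chain of the H2-DM exchange factor. Its KO pools at E15.5 had 5.20, 5.24, 5.19 and 5.26, against 5.07, 4.86, 5.09 and 4.79 in control. The groups did not overlap, but the values stayed close to the floor and the difference of 0.27 (SE 0.16) did not pass (adjusted p = 0.418). At E16.5 the KO pools had 5.12, 6.16, 5.63 and 5.52, against 5.29, 4.99, 5.29 and 5.13 in control. KO replicate 1 again fell among the controls. The difference of 0.43 (SE 0.16, adjusted p = 0.100) became 0.60 without that pool (adjusted p = 0.0165). That was the only 1 of 16 fits with an array left out that passed. Over the 16 the difference was 0.25 to 0.60, with adjusted p up to 0.269.

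Cd74, the invariant chain, had 6.47, 6.63, 6.78 and 6.67 in the KO pools at E15.5, against 6.28, 5.90, 6.36 and 5.91 in control. The groups did not overlap, and the difference of 0.52 (SE 0.16) was just outside the threshold (limma adjusted p = 0.0675). At E16.5 the KO pools had 6.86, 7.46, 7.10 and 7.02, against 6.89, 6.66, 6.40 and 6.21 in control, so that control replicate 1 exceeded KO replicate 1. Cd74 rose in KO glands at E16.5 by 0.57 (SE 0.16, adjusted p = 0.0315), a factor of 1.48. The call held in 11 of 16 fits with an array left out. It was lost without KO E16.5 replicate 2, 3 or 4 (adjusted p = 0.0972, 0.0693 and 0.0539) or control E16.5 replicate 3 or 4 (0.0866 and 0.0875), with quantile normalization (0.0739), under 75th percentile centring (0.0955), in a fit of the E16.5 arrays alone (0.0947) and under the same allowance for the offset.

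Ciita, the co-activator of class II promoters, gave no signal to test in the fit. Its brightest probe set had 4.69, 4.59, 4.82 and 4.63 in the KO pools at E15.5, against 5.08, 4.67, 5.06 and 4.58 in control. At E16.5 it had 4.88, 4.87, 4.86 and 4.68 in KO, against 5.05, 5.26, 4.92 and 4.80 in control. The differences, KO minus control, were -0.17 and -0.19, with overlapping groups at each stage (exact permutation test, two-sided, p = 0.343 and 0.200, 0.400 and 0.273 adjusted over 56 tests, n = 4 each, where 0.0286 is the smallest p possible). Of its other probe sets, 1421211_a_at differed by -0.27 and -0.20 and 1447075_at by 0.47 and 0.44, with no signal above 4.41. The probe sets of Ciita disagreed in direction, and apart from 1 array (control E16.5 replicate 2, brightest probe set) all values lay below the floor, so no direction is given for it.

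Counted together, 1 of the 5 tested members passed at E15.5 (H2-Ab1) and 3 at E16.5 (H2-Aa, H2-Ab1 and Cd74), all higher in KO, where 3.69% and 6.99% of all genes tested were called higher. The median log2 fold change of the 5 was 0.52 at E15.5 and 0.57 at E16.5, beside 0.07 and 0.08 over all genes tested. The KO and control values did not overlap for 3 of the 5 at E15.5 and for 2 at E16.5, while KO lay wholly above control for 9.80% and 10.4% of all genes. Since H2-Ab1 and H2-DMa exceeded the floor on fewer than 4 control arrays and entered the test through the KO arrays, these counts describe the members and are no test of them. More cells of a type and more RNA per cell cannot be told apart in RNA of whole glands.

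Over the day from E15.5 to E16.5 the members were higher at the later stage in each genotype, but 1 difference passed. H2-Aa rose in KO glands, with a mean of 8.14 at E16.5 against 6.08 at E15.5, a difference of 2.06 (SE 0.44, limma adjusted p = 0.0348). Of all genes, 0.872% were called higher in this comparison. In KO the stages did not overlap for 2 of the 5 (H2-Aa and Cd74), beside 5.53% of all genes, and in control for 2 (H2-Aa and H2-Ab1), beside 2.31%. Without KO E15.5 replicate 3 the difference of H2-Aa in KO was 1.54 (adjusted p = 0.0623), so the call rested partly on that pool. It was also lost in 6 further fits without an array, with adjusted p up to 0.138 (without KO E16.5 replicate 3), in a fit of the KO arrays alone (0.119) and with every probe set as a feature (0.0547). In that last fit the second H2-Aa probe set passed, with a smaller difference of 1.16 in KO (adjusted p = 0.0155) and 0.62 in control (adjusted p = 0.471). The mean of all H2-Aa probe sets gave 1.07 in KO (adjusted p = 0.0284). In the controls H2-Aa averaged 6.59 at E16.5 and 5.03 at E15.5, a difference of 1.56 (adjusted p = 0.220), and the 4 later pools all exceeded the earlier ones. The other 4 tested members differed between stages in KO by 0.39 (H2-DMa) to 0.69 (H2-Ab1), with adjusted p from 0.0998 to 0.424. In control they differed by 0.22 (H2-DMa) to 0.62 (H2-Ab1), with adjusted p from 0.242 to 0.838, in a comparison where 0.0440% of all genes were called higher. The comparisons of stages and of genotypes share arrays, so their values are not independent of each other.

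The KO effects at E16.5 minus E15.5 were positive for all 5 tested members, between 0.05 (Cd74, SE 0.23) and 0.50 (H2-Aa, SE 0.62). None passed, and in limma 0 of 13644 genes did (0%), while 258 had an unadjusted p under 0.05. With arrays weighted by quality, 6 genes passed, none of them a member. A change of the KO effect with stage was not detectable with 4 pools a group.

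The order of the 4 groups was the same for H2-Ab1, H2-DMa and Cd74, with KO E16.5 highest, followed by KO E15.5, control E16.5 and control E15.5. For H2-Ab1 the middle neighbours were separated, with KO E15.5 at 5.54 to 5.76, against control E16.5 at 5.0 to 5.27. For H2-Aa and H2-Eb1 control E16.5 stood above KO E15.5, with overlapping values. On the brightest Ciita probe set the control means stood above KO at each stage, and all neighbours in the order overlapped. That probe set exceeded the floor on 1 array, and 1447075_at went the other way (0.47 and 0.44), so the order gives no direction for Ciita.

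KO E15.5 replicate 3 was low for H2-Aa. On the brightest H2-Aa probe set, 1435290_x_at, its difference from the mean of the other 3 KO pools was -2.08. Over all 13644 genes tested, the same difference for this array had a median of 0.01 and a 5th to 95th percentile range of -0.38 to 0.66, and 48 genes were at least 1 lower. The other tested members differed far less on this array: the difference was -0.17 for H2-Ab1, -0.21 for H2-Eb1, -0.04 for H2-DMa and 0.19 for Cd74, which was the highest of its group. The pool was the lowest of its group in 4 of the 5 tested members. For H2-DMa (5.192 against 5.196 in the next KO pool) and H2-Eb1 (5.998 against 6.010) that was nearly a tie.

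The second H2-Aa probe set, 1438858_x_at, gave a different picture of that pool. Its KO values at E15.5 were 5.93, 5.99, 5.48 and 6.17, against 5.02, 4.62, 4.64 and 5.0 in control, so that KO replicate 3 was the lowest KO pool but above every control. Read by this probe set, H2-Aa was higher in KO by 1.07 at E15.5 (SE 0.20, limma adjusted p = 0.00502 over 24433 probe sets) and by 1.62 at E16.5 (SE 0.20, adjusted p = 0.000116). At E16.5 its KO values were 6.59, 7.09, 7.41 and 7.13, against 5.88, 5.36, 5.51 and 5.0 in control, again without overlap. This reading was chosen after the values were seen. Of the other H2-Aa probe sets, 1443783_x_at lay below the floor on every array and was higher in KO by 0.52 and 0.66. The set 1452431_s_at differed by 0.21 (adjusted p = 0.781) and 0.81 (adjusted p = 0.0950). All 4 were higher in KO at both stages.

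The probe sets of H2-Ab1 agreed less well. The second brightest, 1451721_a_at, had 5.08, 4.91, 5.06 and 5.50 in KO at E15.5, against 4.86, 4.32, 4.31 and 4.50 in control, a difference of 0.64 (SE 0.19, limma adjusted p = 0.0682). At E16.5 the difference was 0.82 (adjusted p = 0.0143). The third, 1425477_x_at, lay below the floor on every array and went the other way at E15.5, with 4.35 to 4.59 in KO, against 4.77 to 4.95 in control. Its difference was -0.41 at E15.5 and -0.11 at E16.5. With the mean of all its probe sets, H2-Ab1 was higher by 0.47 at E15.5 (adjusted p = 0.0653) and by 0.65 at E16.5 (adjusted p = 0.00760). Probe sets whose names end in _x_at or _s_at can share probes with related sequences, and signals of different probe sets are not compared here.

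**Figure D2:**
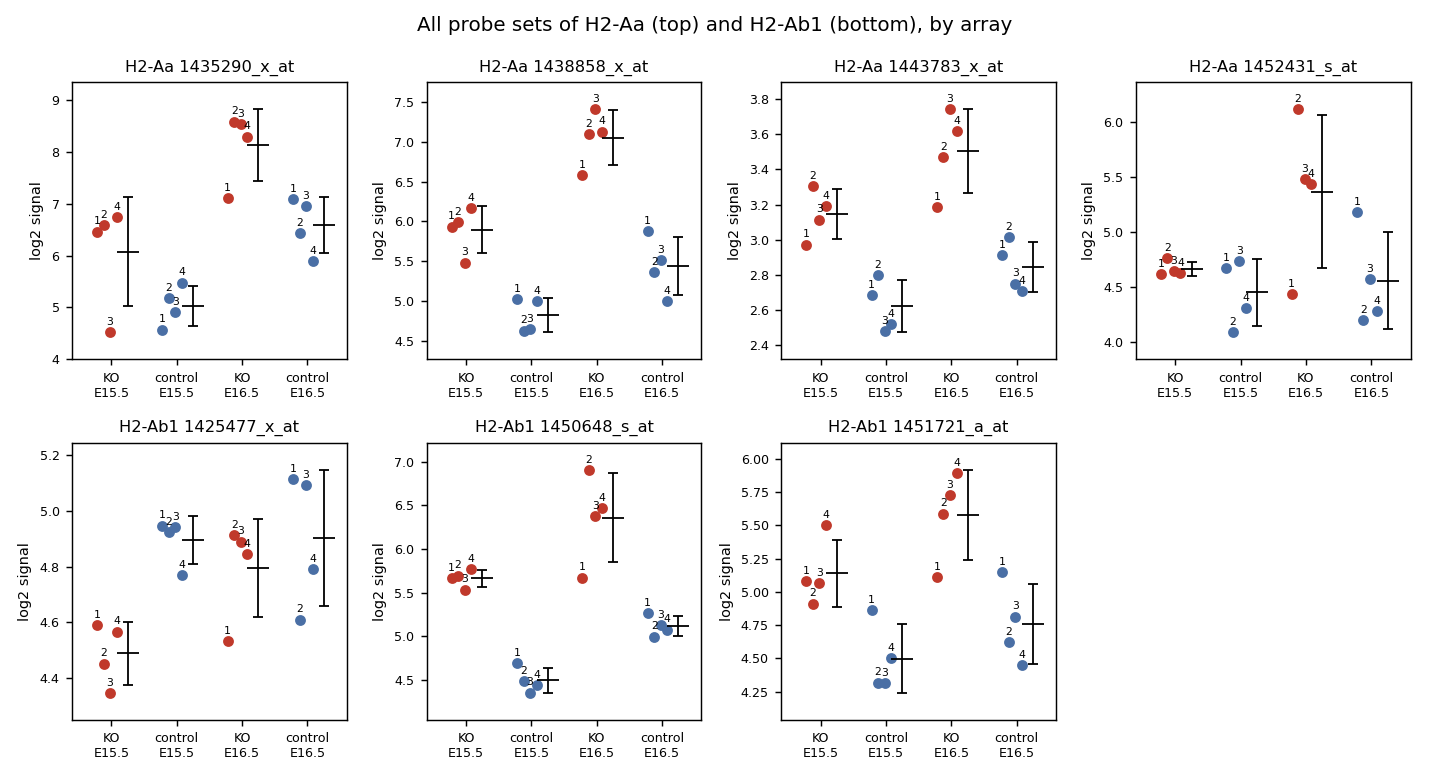
Log2 signal (vertical axes) of the 4 probe sets of H2-Aa in the top row and the 3 of H2-Ab1 in the bottom row, on the 16 arrays by group. Points are arrays with replicate numbers, bars are mean ± SD of 4. KO E15.5 replicate 3 is far below its group on 1435290_x_at, and 1425477_x_at of H2-Ab1 is lower in KO at E15.5.

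KO E16.5 replicate 1, singled out after its values were seen, was the lowest of its group in all 5 tested members. It had 5.67 for H2-Ab1 (others 6.38 to 6.90), 6.14 for H2-Eb1 (others 6.97 to 7.10) and 6.86 for Cd74 (others 7.02 to 7.46). Without it all 5 passed at E16.5, in a fit where 706 of 13621 genes were called higher. The log2 fold changes were then 1.89 for H2-Aa, 1.47 for H2-Ab1, 0.70 for H2-Eb1, 0.60 for H2-DMa and 0.65 for Cd74. Leaving out the lowest KO array of all 5 raises each fold change by construction. No other fit with an array left out had all 5 passing. The 3′ minus 5′ signal of Gapdh on KO E16.5 replicate 1 was 1.50, against 0.11 to 0.73 on the other KO E16.5 arrays, and its part in the result was not tested.

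The members also varied together between pools of a group. As a description over 16 arrays, deviations from the group mean correlated most between H2-Ab1 and H2-DMa (r = 0.876), H2-Ab1 and H2-Eb1 (0.828) and H2-Aa and H2-Eb1 (0.744). They correlated least between H2-Aa and Cd74 (0.112, or 0.307 without KO E15.5 replicate 3). These are Pearson values, and KO E16.5 replicate 1 enters each of them. Averaged over the members and scaled, the deviations were most extreme in KO E16.5 replicates 1 (-2.11) and 2 (1.66). The rank correlation (Spearman) of H2-Ab1 and H2-DMa was lower, 0.585. Outside the members, the 10 genes whose deviations were most like their mean were Prss12 (r = 0.892), Dbndd1 (0.870), Ltb (0.859), Ddah1 (0.849), 1700088E04Rik (0.848), Anxa1 (0.841), Tnfaip8l2 (0.830), Sirt3 and Cfap126 (0.825 each) and Asphd1 (0.808). The rank correlations of these 10 genes were lower, from 0.641 (Prss12) to 0.818 (Sirt3). Ltb encodes the cytokine lymphotoxin beta. Among these, Tnfaip8l2, a negative regulator of immune signalling, rose in KO glands at E16.5 by 0.72 (limma adjusted p = 0.0150), with 0.61 at E15.5 (adjusted p = 0.0503). Ltb differed by 0.94 and 0.68 without passing (adjusted p = 0.133 and 0.247). Dbndd1 differed by 0.05 and -0.02, so that a gene could follow the members within groups while its group means were close.

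The rest of the class II pathway was read from a list of 20 further genes, of which 19 had a probe set and 15 were tested. At E15.5, 2 of the 15 rose in KO glands and none fell, and at E16.5, 4 rose and none fell, where 3.69% and 6.99% of all genes were called higher. These counts include Marchf1, which was above the floor in KO E16.5 alone. The median log2 fold changes of the 15 were 0.13 and 0.20.

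Ctss, the cathepsin that cleaves the invariant chain in class II cells, had 9.98, 9.76, 9.98 and 10.23 in KO at E15.5, against 9.33, 9.25, 9.48 and 9.53 in control. At E16.5 it had 10.69, 10.92, 11.11 and 10.93 in KO, against 10.03, 9.63, 9.95 and 9.72 in control. It rose by 0.59 (SE 0.12, limma adjusted p = 0.00871) and 1.08 (SE 0.12, adjusted p = 2.74e-05), without overlap at either stage. Marchf1, a ubiquitin ligase that removes class II and CD86 from the surface, rose by 0.63 at E15.5 (SE 0.11, adjusted p = 0.00181) and 1.29 at E16.5 (SE 0.11, adjusted p = 1.28e-06). Its probe set was above the floor on the 4 KO arrays at E16.5 alone, with 5.57, 5.57, 5.86 and 5.84 in KO, against 4.48, 4.38, 4.52 and 4.31 in control. Marchf1 thus entered the test through the group where it was high.

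Cd86, a co-stimulatory ligand of antigen presenting cells, differed by 0.30 at E15.5 (adjusted p = 0.185) and rose by 0.71 at E16.5 (SE 0.12, adjusted p = 0.00118). Ifi30, the thiol reductase that unfolds antigens in endosomes, differed by 0.14 at E15.5 (adjusted p = 0.664) and rose by 0.49 at E16.5 (adjusted p = 0.0368), a call that was lost in 6 of 16 fits with an array left out. Lgmn, an endosomal protease, differed by 0.48 and 0.66 with wide spread (SE 0.31, adjusted p = 0.457 and 0.205). Its KO pools at E15.5 had 9.25 to 9.52, against 8.65 to 9.04 in control. At E16.5 its controls had 9.28, 7.47, 9.20 and 9.28, against 9.06 to 9.82 in KO. Ctsl, the cathepsin that serves in thymic epithelium, differed by 0.01 and 0.20 (adjusted p = 0.985 and 0.552). Its E16.5 controls had 11.97, 10.96, 11.92 and 11.76. The lowest E16.5 control of both genes was replicate 2, which stood apart in RNA quality. The part of that array in these differences was not tested. The remaining beta chain gene, H2-Eb2, differed by 0.28 and 0.22 (adjusted p = 0.102 and 0.174). Marchf8, a ligase related to Marchf1, differed by 0.07 and 0.15 (adjusted p = 0.802 and 0.430), and Cd40, a co-stimulatory receptor, by -0.07 and -0.0027 (adjusted p = 0.694 and 0.991).

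None of the 6 tested factors that act at the X and Y boxes passed at either stage, where 5.86% and 10.5% of all genes passed. The factors were Rfx5, Rfxap and Rfxank, which bind the X box, and Nfya, Nfyb and Nfyc, which bind the Y box. Their log2 fold changes lay between -0.25 (Rfx5) and 0.32 (Nfya) at E15.5 and between -0.15 (Rfxap) and 0.25 (Nfya) at E16.5. H2-DMb2, a beta chain gene of H2-DM, exceeded the floor on 3 arrays, all KO, and was not tested. The listed beta chain gene H2-DMb1 had no probe set with a single symbol. H2-Oa and H2-Ob, which form an inhibitor of H2-DM, lay below the floor on every array.

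**Figure D3:**
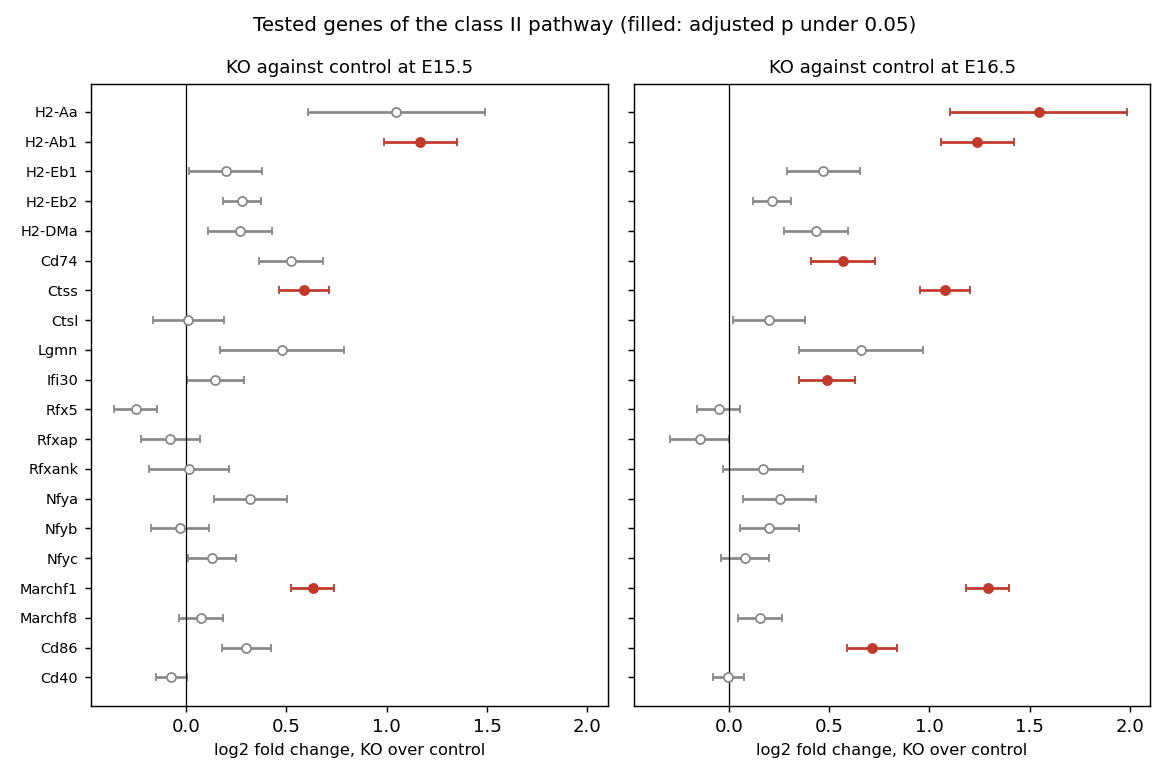
Log2 fold change of KO over control (horizontal axes) for the 20 tested genes of the class II pathway, members included, at E15.5 on the left and E16.5 on the right. Points carry bars of ± 1 SE from limma and are filled red where the adjusted p was under 0.05. Filled points are H2-Ab1, Ctss and Marchf1 at E15.5, joined at E16.5 by H2-Aa, Cd74, Ifi30 and Cd86.

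Between stages, 3 of the 15 further pathway genes rose in KO glands, where 0.872% of all genes were called higher. Marchf1, counted among them, entered the test through KO E16.5. Ctss was higher at E16.5 by 0.93 (limma adjusted p = 0.00183), Marchf1 by 0.94 (adjusted p = 0.000735) and Cd86 by 0.67 (adjusted p = 0.0134). In control glands none of the 15 passed, where 0.0440% of all genes were called higher.

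Class I presentation displays peptides from the cytosol on nearly all cells. None of the 10 tested genes passed at either stage, where 5.86% and 10.5% of all genes passed in either direction. The median log2 fold change of the 10 was -0.04 at E15.5 and 0.01 at E16.5. The heavy chain H2-K1 differed by -0.27 and -0.23 (limma adjusted p = 0.449 and 0.469), the light chain B2m by 0.43 and 0.33 (0.280 and 0.365), and the immunoproteasome subunit Psmb8 by 0.02 and 0.53 (0.982 and 0.151). A difference between the class I and class II lists was not tested.

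Interferon gamma induces Ciita and thereby class II in many cells. Of 9 tested genes of its receptor, signalling and response, none rose at E15.5 and Irf8, a transcription factor of myeloid cells, fell by 0.70 on the log2 scale (SE 0.17, limma adjusted p = 0.0228). At E16.5 Ifngr2, a receptor chain, rose by 0.49 (adjusted p = 0.0181) and Irf1, a transcription factor that acts on the Ciita promoter, rose by 0.38 (adjusted p = 0.0199), and Irf8 differed by -0.52 (adjusted p = 0.0676). Of all genes tested, 3.69% were called higher and 2.18% lower at E15.5, and 6.99% and 3.55% at E16.5. The response genes Gbp2 (-0.36 and -0.03) and Gbp3 (0.23 and 0.27) did not pass, and Cxcl9 and Cxcl10 lay below the floor on every array.

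Most markers of macrophages were also higher in KO glands. At E15.5, 7 of 14 tested macrophage genes rose in KO glands, and at E16.5, 13 of 14 did, and none fell at either stage, where 3.69% and 6.99% of all genes were called higher. Csf1r, the receptor on which macrophages depend, rose by 1.10 at E15.5 (SE 0.16, limma adjusted p = 0.000459) and 1.12 at E16.5 (SE 0.16, adjusted p = 0.000239). Tyrobp, a signalling adaptor, rose by 1.01 and 1.49 (adjusted p = 0.00417 and 8.68e-05). The complement gene C1qb rose by 0.74 and 1.41 (adjusted p = 0.0345 and 0.000161). The mean log2 level of the 14 ranged over 8.15 to 8.73 in KO E15.5, 7.62 to 7.88 in control E15.5, 9.02 to 9.42 in KO E16.5 and 7.83 to 8.48 in control E16.5. The marker Itgam lay below the floor on every array. The E15.5 count was 4 without KO replicate 3 or 4 or control replicate 1 or 2, and 11 without control E16.5 replicate 2.

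The macrophage level of the KO pools with the lowest mean over the members lay within that of their groups. KO E15.5 replicate 3 had a mean of 8.54 over the macrophage genes, the second highest of its group, with 5.60 over the 5 tested members, the lowest. That low mean came largely from H2-Aa, which on 1435290_x_at differed by -2.08 from the mean of the other KO E15.5 pools. The remaining tested members differed by -0.21 (H2-Eb1) to 0.19 (Cd74), and Cd74 was the highest of its group. KO E16.5 replicate 1 had 9.08 over the macrophage genes (others 9.02 to 9.42) and 6.18 over the members (others 6.86 to 7.24). Other lists set KO E15.5 replicate 3 apart from the mean of the other KO E15.5 pools: the median difference was -0.83 over 4 monocyte and neutrophil genes, 0.48 over 7 adrenal cortex genes and 0.38 over 6 endothelial genes. The part of these cells in the class II values was not tested.

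Markers of other class II cells gave less. The share of all genes called higher, beside which the counts here stand, was 3.69% at E15.5 and 6.99% at E16.5. Of the 3 dendritic cell genes above the floor, Batf3, a transcription factor of dendritic and other cells, rose by 1.25 at E15.5 and 0.92 at E16.5 (limma adjusted p = 1.93e-05 and 0.000217). Flt3 and Zbtb46 differed by 0.06 to 0.12. Itgax, Xcr1, Cd209a, Irf4 and Ccr7, which are characteristic of dendritic cells, did not exceed the floor on any array. The B cell genes Cd79a, Ms4a1, Pax5 and Vpreb1 did not either. Of 3 B lineage genes tested, none passed at E15.5 (-0.45 to 0.17), and at E16.5 Cd79b rose by 0.49 (adjusted p = 0.0410) while the lowest of the 3 differed by -0.09. Of 5 T and innate lymphoid genes, 1 passed at each stage: Il7r, the interleukin 7 receptor, rose by 0.92 and 1.22 (adjusted p = 0.0404 and 0.00476). Of these 5, 2 were lower in KO without passing, down to Cd3e, a T cell receptor subunit, with -0.20 and -0.40 (adjusted p = 0.496 and 0.0750). In the same glands 2 of 7 adrenal cortex genes fell at E15.5 and 4 at E16.5, where 2.18% and 3.55% of all genes were called lower. Of 5 chromaffin genes, none passed at E15.5 and 2 rose at E16.5, and all 5 had positive fold changes at both stages (median 0.28 and 0.42). Their mean log2 level at E16.5 was 11.8 to 12.1 in KO, against 11.3 to 11.6 in control. The part of these shifts in the class II values was not tested.

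**Figure D4:**
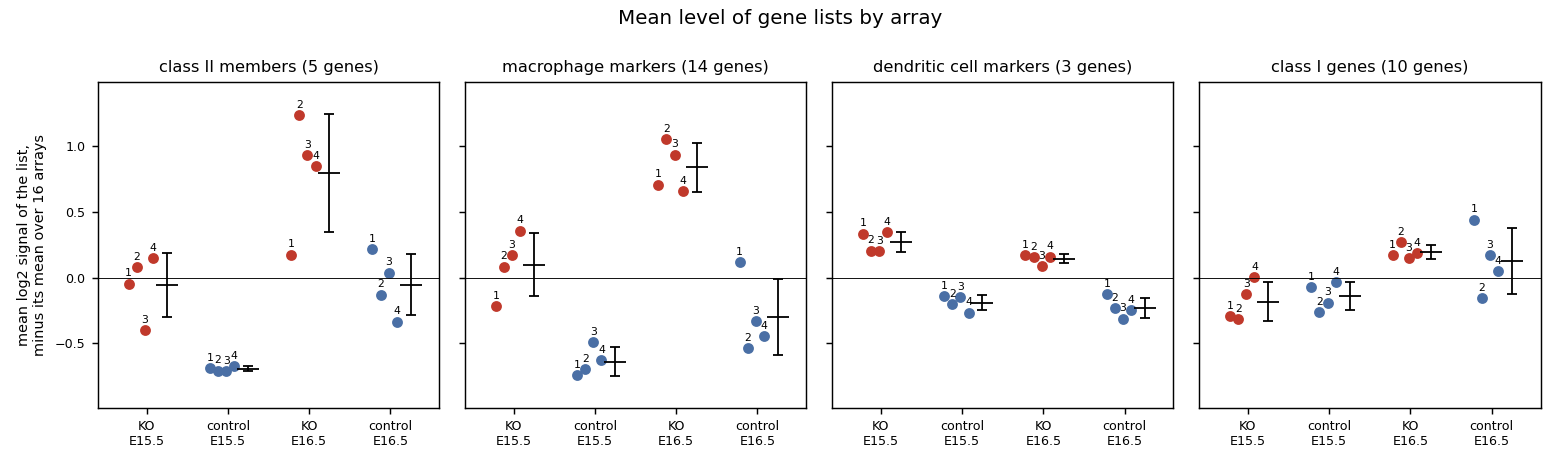
Mean log2 signal of a gene list on each array minus its mean over the 16 arrays (vertical axis, shared), by group, for the 5 tested class II members, 14 macrophage markers, 3 dendritic cell markers and 10 class I genes. Points are arrays with replicate numbers, bars are mean ± SD of 4 arrays. KO E16.5 replicate 1 is low for the class II members (6.18 before centring) while its macrophage mean of 9.08 lies within its group.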

How the data were processed

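The deposited log2 signals of 45101 probe sets on 16 arrays came from RMA as run by the authors (per the submitters' processing notes, where limma is named too). Versions, and whether all arrays were normalized in 1 run, are not given in the sources used here. No further normalization was applied. Symbols came from the platform annotation, updated through gene identifiers for 34741 probe sets. Of the probe sets other than 64 controls, 34945 had 1 symbol, 932 had several and 9160 had none, and the last 2 kinds named no gene. The probe set with the highest mean stood for each of 18193 genes, and the 13644 genes tested had 4 or more arrays above the 40th percentile of that array.

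Group means were fitted to all 16 arrays with limma 3.58.1 in R 4.3.3 (lmFit, eBayes). Tests were two-sided, and every adjusted p of a gene is from Benjamini-Hochberg over all genes tested, passing under 0.05. Single probe sets of the members were also compared by exact permutation, adjusted over 56 tests. The fit was checked on simulated data. Precision is limited by 4 arrays a group, with a median SE of 0.139 for KO against control.

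The members, gene lists, tests and the rule for named genes were chosen with earlier results of these data known. The rule named the members, the listed pathway, class I and interferon genes, up to 4 markers of each other list and those near the floor, the 10 genes most like the members, and Dicer1. Genes of the lists that are not on the array under a single symbol were not analysed here. Alternatives were quantile normalization, centring on the 75th percentile, no floor or the 60th percentile, other choices of probe set, array weights, a trended robust prior, fits of 2 groups only, an allowance for the offset between genotypes (treat), a replicate block and leaving out each array. Deviations of same-numbered KO and control pools correlated at -0.392 to 0.446, and those of differently numbered pools at -0.406 to 0.421. So few values cannot show whether same-numbered pools are paired, and the numbers were not taken to pair them. Promoter windows came from RefSeq GRCm38.p6. Figures were drawn with matplotlib.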

Additional observations from a re-analysis of the deposited data

Results flagged for a closer look

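Of 56 groups of 4 values (14 probe sets in 4 groups), 4 held a value set far from the other 3, with a gap to the nearest value, as a share of the group's range, above Dixon's 95% critical value. Chance gives about 1 in 20 such groups. On H2-Aa probe set 1435290_x_at, KO E15.5 replicate 3 had 4.52, with the others at 6.47 to 6.74. On H2-Eb1 probe set 1417025_at, KO E16.5 replicate 1 had 6.14, with the others at 6.97 to 7.10. On H2-Ab1 probe set 1425477_x_at, control E15.5 replicate 4 had 4.77, with the others at 4.92 to 4.95. On Ciita probe set 1421210_at, KO E16.5 replicate 4 had 4.68, with the others at 4.86 to 4.88. The last 2 probe sets lay below the floor in those groups. Their causes were not tested.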

How the results depend on the processing

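H2-Ab1 was higher in KO and passed at both stages under quantile normalization, 75th percentile centring, no floor, array weights, the trended robust prior, fits of 2 groups only, the offset allowance and a replicate block, but at E15.5 not with the mean of all its probe sets or with its second brightest. The block changed no member's call and left 1 member passing at E15.5 and 3 at E16.5, and same-numbered pools were not shown to be paired. At E15.5, where 1 member passed, 2 did without a floor, 2 in the fit of 2 groups, 3 with array weights, 0 with the mean of all probe sets and 0 at the 60th percentile, where only H2-Aa and Cd74 were tested. At E16.5, where 3 passed, 1 did with 75th percentile centring, 1 with the offset allowance and 5 with array weights. With those weights 3249 of 13644 genes were called higher at this stage. H2-Aa and H2-Ab1 alone passed at E16.5 with quantile normalization and in the fit of 2 groups. Between stages in KO, where 1 passed, 0 did with all probe sets as features, where each member is read by its brightest (the second H2-Aa probe set passed there, 1.16), and 0 in the fit of 2 groups, and 3 with array weights. Between stages in control 3 passed with array weights and 0 otherwise. Leaving out each array gave 1 to 2 members at E15.5, 1 to 5 at E16.5 and 0 to 3 between stages in KO. Cd74 was added at E15.5 without control E16.5 replicate 1 or 4 or KO E16.5 replicate 2, and H2-Ab1 alone passed at E16.5 without KO E16.5 replicate 2, 3 or 4 or control E16.5 replicate 4. The change of the KO effect with stage then ranged from -0.0706 to 0.16 for Cd74, -0.0230 to 0.84 for H2-Aa, -0.11 to 0.30 for H2-Ab1 and -0.0164 to 0.33 for H2-DMa, so that the sign turned for these 4, and from 0.18 to 0.50 for H2-Eb1. Calls over all genes at E15.5 and E16.5 numbered 800 and 1439, with 1688 and 2355 without a floor, 414 and 899 at the 60th percentile, 1350 and 4938 with array weights, and 118 and 243 with the offset allowance. At E16.5 there were 817 in the fit of 2 groups and 923 without KO E16.5 replicate 3. Between stages in KO 123 were called, with 435 by array weights, 73 in the fit of 2 groups and 51 without KO E16.5 replicate 3. In control 13 were called, with 1103 by array weights 0 in the fit of 2 groups and 0 without control E15.5 replicate 1, 2 or 3. Another floor changes the genes in the fit, and leaving out an array changes the group means as well as the number of arrays. The causes of these moves were not tested. Signal over background limits Ciita, H2-DMa and H2-Ab1. H2-Ab1 exceeded the floor on no control array at E15.5 and on 2 at E16.5, and was not tested at the 60th percentile.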
